A study of Mus musculus with 5 samples.

Results

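Integrins and collagens were followed in mouse embryonic stem (ES) cells that lack Dicer and in wild-type ES cells. The members were the genes whose symbol, as the only symbol of a probe set, begins with Itga, with Itgb and a digit, or with the Col-number-a-number pattern of collagen chains, without Col4a1 and Col4a2. Where a gene had several probe sets, its brightest by mean signal was read. This gave 72 of the 19938 genes measured: 27 integrin chains, 42 collagen chains and 3 genes that only share the name pattern. All 72 were tested, with no filter on low signal. The Dicer-deficient group (KO) had 2 arrays and the wild-type group (WT) had 3 arrays, each from asynchronous ES cells. The cells of both groups grew without feeders in equal parts of serum medium with LIF and N2B27 medium with 2i, the inhibitor mix that holds ES cells in a naive state. No line, clone or deleted exon is named for either genotype, so Dicer loss cannot be told apart from anything else that separates these cells. Early G1 cells and a further KO culture of the design were not analysed here.

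Integrins are surface receptors made of an alpha and a beta chain. They bind matrix proteins such as fibronectin, vitronectin, laminins and collagens outside the cell, and bind actin through linker proteins inside it. The alpha chain largely sets which ligand is bound, and a chain without a partner is not carried to the surface. Collagens are secreted or membrane-anchored chains that wind around each other in a helix of glycine repeats and form fibrils, networks or filaments. ES cells use integrins that hold the beta 1 chain to attach to laminin and fibronectin. Dicer cuts microRNA precursors, and mature microRNAs lower the transcripts they pair with.

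The values are the deposited log2 signals of Affymetrix whole-transcript arrays. Array medians ran from 5.39 to 5.45, and precision is limited by having 5 arrays. Dicer1 had 7.20 and 6.84 on the KO arrays, against 8.84, 8.82 and 8.85 on the WT arrays (log2 change -1.82, adjusted p = 0.000129); whether its probes lie in a deleted stretch is not known. All 10 ES cell markers examined, among them Pou5f1, Nanog and Sox2, lay above the upper quartile of every array, and Esrrb, Klf4 and Tdgf1 were called lower. Of 12 fibroblast or feeder markers 0 lay that high, with a summed signal (log2 values turned back to linear) of 393 to 419 on KO arrays and 381 to 430 on WT arrays and 1, Meox2, called higher. Blood cell markers summed to 721 to 800 on KO arrays and 926 to 1147 on WT arrays, with 1 of 8, Laptm5, called lower. This sum is mainly that of Laptm5, since the other 7 lay at or below the median of all probe sets on every array. Primitive endoderm markers summed to 388 to 395 on KO arrays and 361 to 446 on WT arrays, and endothelial markers to 226 to 245 on KO arrays and 242 to 269 on WT arrays, with 1 of 6, Tek, called lower. Trophectoderm markers summed to 1029 to 1219 on KO arrays and 701 to 776 on WT arrays, with Gata3, Krt8 and Krt18 called higher of 8. Eomes of the same list had 5.18 and 5.55 on KO arrays, against 5.92, 6.08 and 5.56 on WT arrays (log2 change -0.49, adjusted p = 0.0977), and Cdx2, Elf5, Krt7 and Tfap2c had changes between -0.03 and 0.06. The part of these markers in the changes given here was not tested. Of the marker calls, Tdgf1, Gata3 and Krt8 apart, each was lost without at least 1 array: Esrrb without KO 2 or WT 2, Klf4 whichever array but KO 1 was left out (log2 change -0.59 without KO 2), Meox2 without KO 2 or WT 2, Tek without KO 2, and Laptm5 and Krt18 whichever array but WT 3 was left out. In bulk RNA a change in how many cells express a gene and a change in its RNA per cell cannot be told apart.

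A group of 7 integrin chains rose in Dicer-deficient cells: the beta chains Itgb1, Itgb5 and Itgb7 and the alpha chains Itgav, Itga5, Itga3 and Itga9. Of the collagen chains Col18a1, Col6a5 and Col14a1 rose. A gene was called when its adjusted p from limma fell below 0.05, with Benjamini-Hochberg adjustment over all 19938 genes. Of the chains just named, only Itgb1, Itgb7, Col18a1 and Col6a5, the last on its brighter probe set, kept their call whichever array was left out. Of 27 integrin chains 7 were called higher and 0 lower (at an unadjusted p under 0.05, 9 and 0). Over all genes 8.48% were called higher and 8.6% lower (at an unadjusted p under 0.05, 13.6% and 14.2%). Of 42 collagen chains 3 were called higher and 0 lower (at an unadjusted p under 0.05, 5 and 0). The share called higher, 7.14%, was near that over all genes, while the share called lower was 0%, against 8.6%. The median log2 change was 0.067 over the integrin chains and 0.037 over the collagen chains, beside 0.0075 over all genes. Both KO arrays lay above all WT arrays for 11 integrin and 9 collagen chains, and below them for 1 and 0 (over all genes 20% above and 19.9% below, 39.9% in either direction). By mean signal over the 5 arrays, 14 of 27 integrin chains and 35 of 42 collagen chains exceeded 5.41, the median over all probe sets, and 7 and 3 of these were called higher. Among all genes that bright 13.5% were called higher and 14.4% lower.

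**Figure D1:**
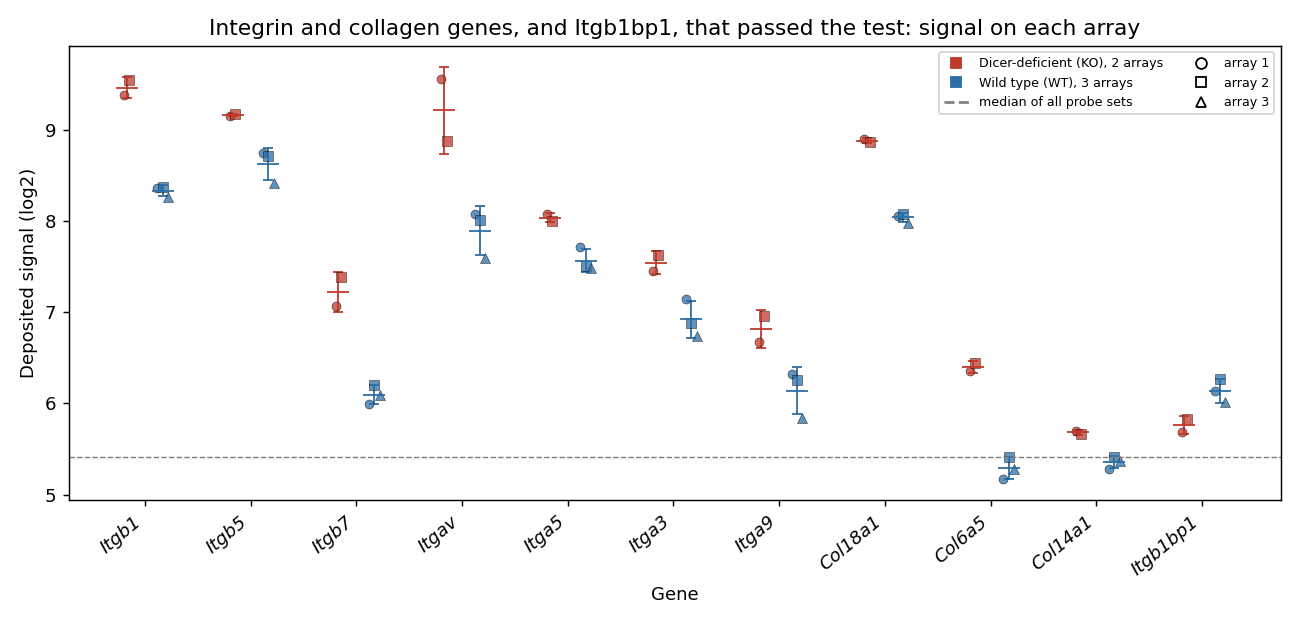
Deposited signal (log2, y axis) of each gene that passed the test (x axis) on every array; red marks are Dicer-deficient (KO) arrays, blue marks are wild-type (WT) arrays, symbols give the array number, and bars are the mean with 1 SD. The KO and WT values do not overlap for any of the 11 genes, and the WT values of Col6a5 and Col14a1 lie at or below the median of all probe sets (5.41, dashed line).

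Promoter sequence is shown for the genes whose call held whichever array was left out, Itgb1, Itgb7, Col18a1 and Col6a5, and for Itgav, which had the largest change among the members. Each line gives the 250 bases before an annotated start, 5′ to 3′ on the gene's own strand, from RefSeq on GRCm38.p6. Col18a1 has separate starts, and both are shown. Capitals mark any of 5 short motifs on either strand: the GC box GGGCGG, the CCAAT box, the TATA box TATAAA, the AP-1 motif TGANTCA and the TEAD motif GGAATG.
Itgb1, chr8:128685404-128685653, plus strand: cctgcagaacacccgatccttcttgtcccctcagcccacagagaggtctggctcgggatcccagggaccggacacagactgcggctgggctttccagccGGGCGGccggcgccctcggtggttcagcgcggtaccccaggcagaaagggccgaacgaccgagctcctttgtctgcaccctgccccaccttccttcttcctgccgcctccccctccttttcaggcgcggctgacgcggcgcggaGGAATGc
Itgb7, chr15:102231936-102232185, minus strand: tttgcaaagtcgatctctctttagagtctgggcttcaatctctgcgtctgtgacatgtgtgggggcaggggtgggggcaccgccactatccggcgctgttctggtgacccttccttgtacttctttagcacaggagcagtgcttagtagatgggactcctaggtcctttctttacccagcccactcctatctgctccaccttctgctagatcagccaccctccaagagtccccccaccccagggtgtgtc
Itgav, chr2:83724147-83724396, plus strand: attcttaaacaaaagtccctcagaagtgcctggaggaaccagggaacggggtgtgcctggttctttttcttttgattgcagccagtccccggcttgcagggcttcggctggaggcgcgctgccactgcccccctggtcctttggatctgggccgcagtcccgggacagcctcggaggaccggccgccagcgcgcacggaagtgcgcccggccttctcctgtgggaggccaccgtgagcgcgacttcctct
Col18a1 outer start, chr10:77166531-77166780, minus strand: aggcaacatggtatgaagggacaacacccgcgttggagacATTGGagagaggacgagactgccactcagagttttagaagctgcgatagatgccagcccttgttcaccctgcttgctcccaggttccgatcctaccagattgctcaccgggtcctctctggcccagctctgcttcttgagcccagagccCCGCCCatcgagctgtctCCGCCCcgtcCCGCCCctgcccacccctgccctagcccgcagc
Col18a1 inner start, chr10:77113706-77113955, minus strand: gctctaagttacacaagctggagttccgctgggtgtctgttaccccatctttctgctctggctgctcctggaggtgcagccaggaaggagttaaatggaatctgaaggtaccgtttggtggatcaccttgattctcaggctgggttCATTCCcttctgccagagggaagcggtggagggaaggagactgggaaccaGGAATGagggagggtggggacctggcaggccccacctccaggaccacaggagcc
Col6a5, chr9:105960644-105960893, minus strand: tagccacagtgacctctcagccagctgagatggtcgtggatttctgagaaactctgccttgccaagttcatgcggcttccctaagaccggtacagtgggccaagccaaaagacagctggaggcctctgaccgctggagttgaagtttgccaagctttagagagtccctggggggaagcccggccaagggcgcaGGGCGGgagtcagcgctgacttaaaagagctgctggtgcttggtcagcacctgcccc

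Of the 72 members 54 had an annotated promoter in the table, 59 promoters in all. The Itgb1 promoter held a GC box whose first base is 151 bases before the start, and a TEAD motif 7 bases before it. The outer start of Col18a1 had 3 GC boxes and 1 CCAAT box, and the inner start had 2 TEAD motifs and no GC box. The Itgav and Itgb7 windows held none of the 5 motifs, and that of Col6a5 held 1 GC box. A GC box was found in 7 of 12 promoters of called members, both promoters of Itga3 among them, against 32.7% of all 32851 promoters. Called or not, 21 of 36 collagen promoters (58.3%) and 7 of 21 integrin promoters (33.3%) held it. A TEAD motif was found in 2 of these 12, against 12.6% of all, and a CCAAT box in 2, against 33.8%. TATAAA and TGANTCA were found in 0 of the 12, against 12.4% and 6.75% of all promoters. GC content was 58.6% at the median of the 12, 57.6% over the 59 promoters of members and 52.4% over all promoters. No marked motif overlapped another, and a match describes these letters alone.

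Itgb1, the beta chain shared by the largest group of integrins, had 9.38 and 9.54 in KO cells, against 8.36, 8.37 and 8.26 in WT cells. Both KO values lay more than 1 log2 unit above the lowest WT value, and the WT values were tightly grouped. The mean was 9.46 ± 0.113 (SD, n = 2) in KO cells and 8.33 ± 0.0608 (SD, n = 3) in WT cells, a 2.19-fold higher level with a 95% interval of 1.90 to 2.52 (log2 change 1.13, SE 0.0867, adjusted p = 0.000241). Itgb5, which pairs with the alpha v chain to bind vitronectin, had 9.15 and 9.17 in KO cells, against 8.74, 8.71 and 8.42 in WT cells. The KO arrays were nearly equal and lay above all WT arrays, of which WT 3 was the lowest. The level was 1.45-fold higher (95% interval 1.21 to 1.73, adjusted p = 0.0147).

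Itgb7, known from lymphocytes, where it pairs with the alpha 4 and alpha E chains, had 7.07 and 7.38 in KO cells, against 5.99, 6.20 and 6.09 in WT cells. This is a 2.19-fold higher level (95% interval 1.82 to 2.63, adjusted p = 0.000706). Neither of those partners was called. Itga4 had 4.41 and 4.24 in KO cells, against 4.32, 4.42 and 4.59 in WT cells, and Itgae had 4.88 and 4.84 in KO cells, against 5.01, 4.88 and 5.0 in WT cells. Both partners stayed below the median of all probe sets on every array, with log2 changes of -0.12 and -0.10 (adjusted p = 0.571 and 0.507). Of 8 blood cell markers 0 were called higher in limma (0 also at an unadjusted p under 0.05) and 1, Laptm5, lower; the pan-leukocyte marker Ptprc had 4.22 and 4.14 in KO cells, against 4.24, 4.16 and 4.25 in WT cells.

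The other beta chains, Itgb2, Itgb2l, Itgb3, Itgb4, Itgb6 and Itgb8, did not pass the test. Their log2 changes lay between -0.11 for Itgb8 and 0.09 for Itgb3. Itgb4, the beta chain of hemidesmosomes, had 6.74 and 6.55 in KO cells, against 6.53, 6.55 and 6.58 in WT cells. Itgb2, Itgb2l, Itgb6 and Itgb8 lay at or below the median of all probe sets on every array.

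Among the alpha chains that recognise the RGD tripeptide of fibronectin and vitronectin, Itgav and Itga5 rose and Itga8 and Itga2b did not pass. Itgav had 9.55 and 8.87 in KO cells, against 8.08, 8.01 and 7.59 in WT cells. The KO arrays differed widely (SD 0.481), yet both exceeded every WT array. The level was 2.49-fold higher, with a wide 95% interval of 1.76 to 3.53 (log2 change 1.32, SE 0.215, adjusted p = 0.00555). Without KO 1 the log2 change was 0.98 and the adjusted p 0.0990. Itga5, the alpha chain of the classical fibronectin receptor, had 8.07 and 8.0 in KO cells, against 7.71, 7.5 and 7.48 in WT cells, a 1.39-fold higher level (95% interval 1.19 to 1.62, adjusted p = 0.0138). Itga8, which binds nephronectin, had 4.46 and 4.48 in KO cells, against 4.39, 4.32 and 4.45 in WT cells, and Itga2b of platelets had a change of -0.03.

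Of the laminin-binding alpha chains 1 of 3 rose. Itga3 had 7.45 and 7.63 in KO cells, against 7.14, 6.88 and 6.74 in WT cells, a 1.54-fold higher level (95% interval 1.25 to 1.89, adjusted p = 0.0145). Itga6, the laminin receptor chain long used as an ES cell surface marker, had 8.97 and 8.79 in KO cells, against 9.01, 8.85 and 8.58 in WT cells. The groups overlapped (log2 change 0.07, 95% interval -0.24 to 0.38), so a rise the size of that of Itgb1 lies outside the interval. The muscle laminin receptor chain Itga7 had a change of -0.01.

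Itga9, which pairs with beta 1 and binds tenascin and VCAM1, had 6.67 and 6.96 in KO cells, against 6.32, 6.26 and 5.84 in WT cells. The level was 1.60-fold higher (95% interval 1.24 to 2.06, adjusted p = 0.0247). None of the 4 collagen-binding alpha chains was called in limma, and 1 of them, Itga1, had an unadjusted p under 0.05. Itga1 had 4.66 and 4.75 in KO cells, against 4.48, 4.49 and 4.41 in WT cells (log2 change 0.25, adjusted p = 0.0761), the uncalled member nearest to the threshold. Itga10, Itga2 and Itga11 had changes of 0.14, -0.14 and 0.00. The 5 leukocyte alpha chains were likewise uncalled, from -0.25 for Itgad to 0.27 for Itgax (adjusted p = 0.262 and 0.0937). Another probe set of Itgad had a change of -0.02.

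The calls were set against the known partners of each chain, 24 alpha and beta combinations in all. In 5 of them both chains were called higher: Itgb1 with Itga3, Itga5, Itga9 or Itgav, and Itgb5 with Itgav. In 13 only 1 chain was called, and in 6 neither. Of the 12 alpha partners of Itgb1, 4 were called higher and 0 lower. Of the 5 beta partners of Itgav, Itgb1 and Itgb5 were called, while Itgb3, Itgb6 and Itgb8 had changes of 0.09, 0.03 and -0.11. A transcript level says nothing of how many pairs stand on the surface.

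**Figure D2:**
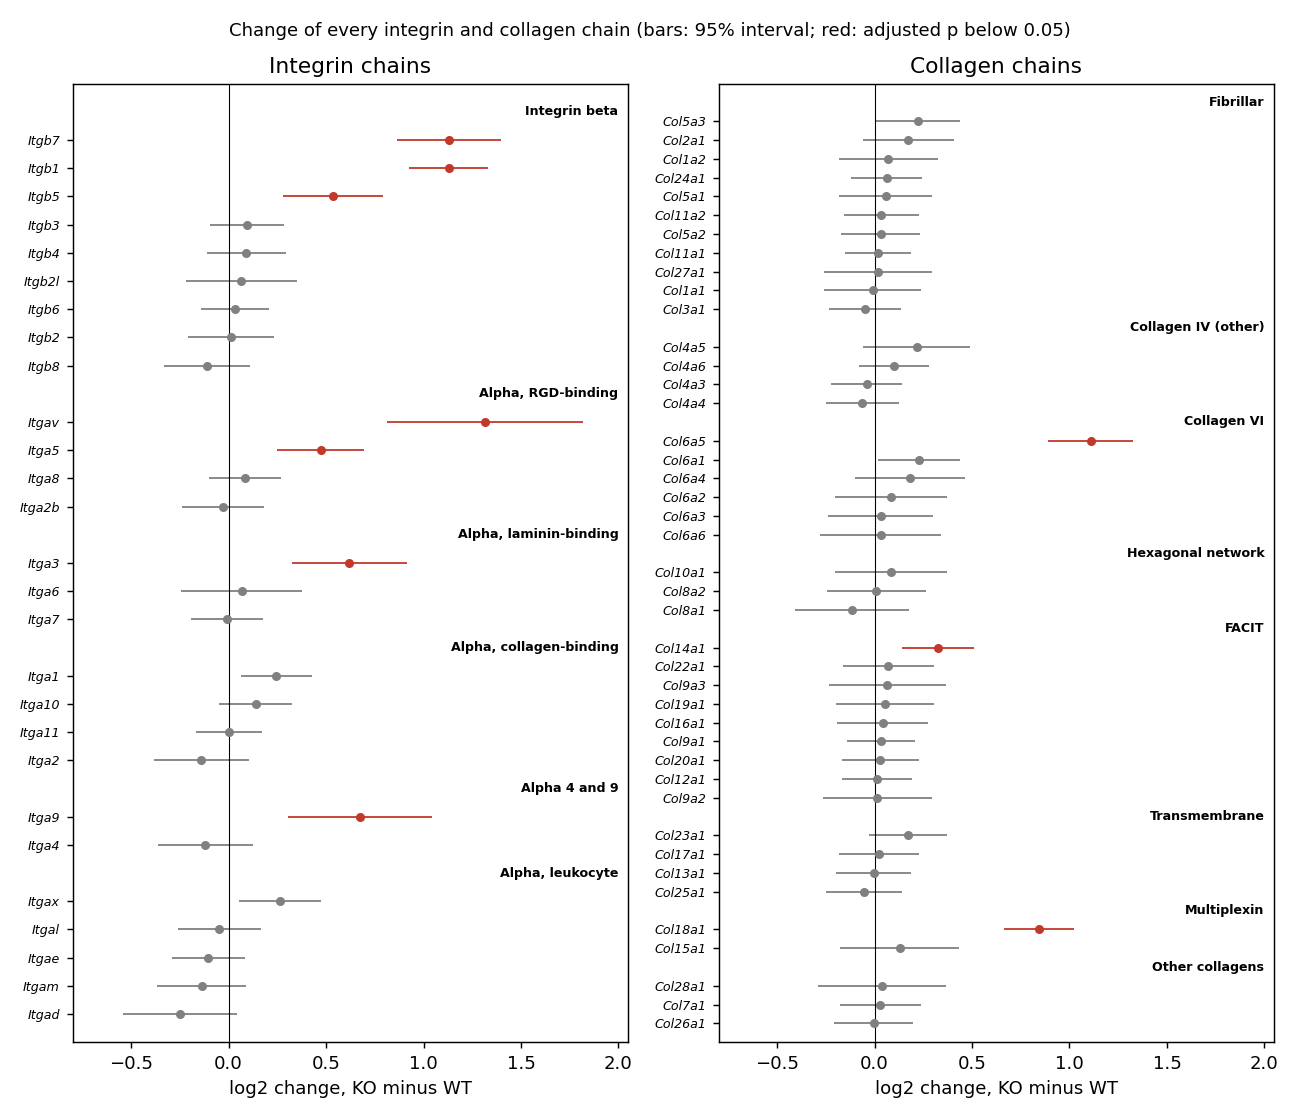
Log2 change, KO minus WT (x axis), of all 27 integrin chains (left) and all 42 collagen chains (right), grouped by class, with 95% intervals from limma; red marks passed an adjusted p of 0.05. The 7 called integrin chains lie between 0.47 and 1.32, whereas 39 of 42 collagen chains lie between -0.12 and 0.23.

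Col18a1, a basement membrane collagen that carries heparan sulphate and yields endostatin, had 8.90 and 8.86 in KO cells, against 8.05, 8.08 and 7.98 in WT cells. The arrays of each genotype lay close together, and the groups were far apart. The level was 1.79-fold higher (95% interval 1.58 to 2.03, log2 change 0.84, SE 0.0772, adjusted p = 0.000464). It was the sole collagen chain above the upper quartile on every array. The other multiplexin, Col15a1, had 6.24 and 6.02 in KO cells, against 5.84, 5.93 and 6.23 in WT cells (log2 change 0.13, adjusted p = 0.629).

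Col6a5, a later-described chain of collagen VI, had 6.35 and 6.44 in KO cells, against 5.17, 5.41 and 5.28 in WT cells. The log2 change was 1.11 (SE 0.0944, adjusted p = 0.000355); no fold is given, since WT signals this dim may be background. Its probe sets disagree. On the other one Col6a5 had 5.64 and 5.71 in KO cells, against 5.56, 5.37 and 5.64 in WT cells, a change of 0.15 (adjusted p = 0.407), and the mean of both gave 0.63. Its neighbours on chromosome 9, Col6a6 and Col6a4, which belong to the same subfamily, had changes of 0.03 and 0.18 (adjusted p = 0.925 and 0.425). The classical collagen VI chains Col6a1, Col6a2 and Col6a3 had changes of 0.23, 0.08 and 0.03. Col6a1 had 6.73 and 6.72 in KO cells, against 6.43, 6.43 and 6.63 in WT cells (adjusted p = 0.147, but 0.0460 without WT 3 and 0.0446 with array weights).

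Col14a1, which lies along collagen fibrils as a member of the FACIT class, had 5.70 and 5.66 in KO cells, against 5.28, 5.41 and 5.37 in WT cells. The change of 0.33 was small and close to the median signal (SE 0.0797, adjusted p = 0.0289), and the call was lost whichever array was left out (adjusted p from 0.0518 to 0.164). The other 8 FACIT chains had changes between 0.01 and 0.07, with Col9a3 at 7.58 and 7.39 in KO cells, against 7.26, 7.35 and 7.65 in WT cells.

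None of the 11 fibrillar collagens was called in limma, and 1, Col5a3, had an unadjusted p under 0.05, with a change of 0.23 (adjusted p = 0.162). Col1a1, the main chain of bone and skin collagen, had 6.51 and 6.51 in KO cells, against 6.37, 6.49 and 6.70 in WT cells (log2 change -0.01, 95% interval -0.26 to 0.24). Its change turned to 0.08 without WT 3. Its partner Col1a2 had 5.81 and 5.93 in KO cells, against 5.62, 5.85 and 5.93 in WT cells, and Col3a1 of elastic tissues had 5.93 and 5.87 in KO cells, against 5.90, 5.93 and 6.02 in WT cells. For these chains the groups overlapped. Cartilage Col2a1 had a change of 0.17 (adjusted p = 0.341).

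These fibrillar chains are of interest because the miR-29 family is known to lower Col1a1, Col1a2 and Col3a1 transcripts in fibroblasts. The mature forms, from RefSeq on GRCm38.p6, share the seed in capitals (bases 2 to 8, counted from the 5′ end); miR-29b is also encoded at another locus, on chromosome 6.
mmu-miR-29a-3p, chr6:31062673-31062694, minus strand: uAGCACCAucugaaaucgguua
mmu-miR-29b-3p, chr1:195037091-195037113, plus strand: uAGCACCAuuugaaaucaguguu
mmu-miR-29c-3p, chr1:195037600-195037621, plus strand: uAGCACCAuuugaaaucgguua

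Mature microRNAs were not measured. The probe sets for Mir29a and Mir29b-1 lay at 3.22 and 2.93 on average in KO cells and at 3.17 and 2.87 in WT cells, under the lower quartiles of the arrays, 4.14 to 4.18. The 95% intervals put the change of Col1a1 between -0.26 and 0.24, that of Col1a2 between -0.18 and 0.32 and that of Col3a1 between -0.24 and 0.14.

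No remaining collagen chain was called. The collagen IV chains Col4a3, Col4a4, Col4a5 and Col4a6 of specialised basement membranes had changes of -0.04, -0.06, 0.22 and 0.10, with adjusted p of 0.302 for Col4a5. The ubiquitous collagen IV chains Col4a1 and Col4a2, which are not members, had changes of 0.10 and 0.03 (adjusted p = 0.585 and 0.914). The hexagonal network chains Col8a1, Col8a2 and Col10a1 had changes between -0.12 and 0.09, the transmembrane collagens between -0.06 for Col25a1 and 0.17 for Col23a1, and Col7a1 of anchoring fibrils, Col26a1 and Col28a1 had 0.03, -0.0033 and 0.04. For all 39 uncalled collagen chains the 95% interval lay within 0.5 log2 units of no change, and for 19 of the 20 uncalled integrin chains it did.

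The WT arrays themselves were not alike over these genes. WT 3 was the highest WT array for 37 of 42 collagen chains (88.1%, against 37.8% over all genes), and WT 1 was the lowest for 29. Over the collagen chains the median deviation from the WT mean was 0.06 on KO 1, 0.03 on KO 2, -0.08 on WT 1, -0.02 on WT 2 and 0.12 on WT 3. Thus 28 of 42 collagen chains were higher on both KO arrays than on WT 1 and WT 2 (29.4% over all genes), while 26 were lower on both KO arrays than on WT 3 (41.9% over all genes). Without WT 3 the median collagen change was 0.12, and without WT 1 it was 0.0050. The called integrin chains ran the other way, with WT 3 the lowest WT array for 6 of 7 (33.9% over all genes). These 7 were picked by a comparison that uses these same WT values, so the count of 6 is not independent of that choice. Over all 27 integrin chains WT 3 was the lowest for 10 (37%), near the share over all genes. Over all probe sets the lower quartile, median and upper quartile were 4.18, 5.45 and 7.25 on WT 3. They were 4.14, 5.40 and 7.34 on WT 1, and 4.15, 5.39 and 7.32 on WT 2. What sets WT 3 apart was not tested.

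**Figure D3:**
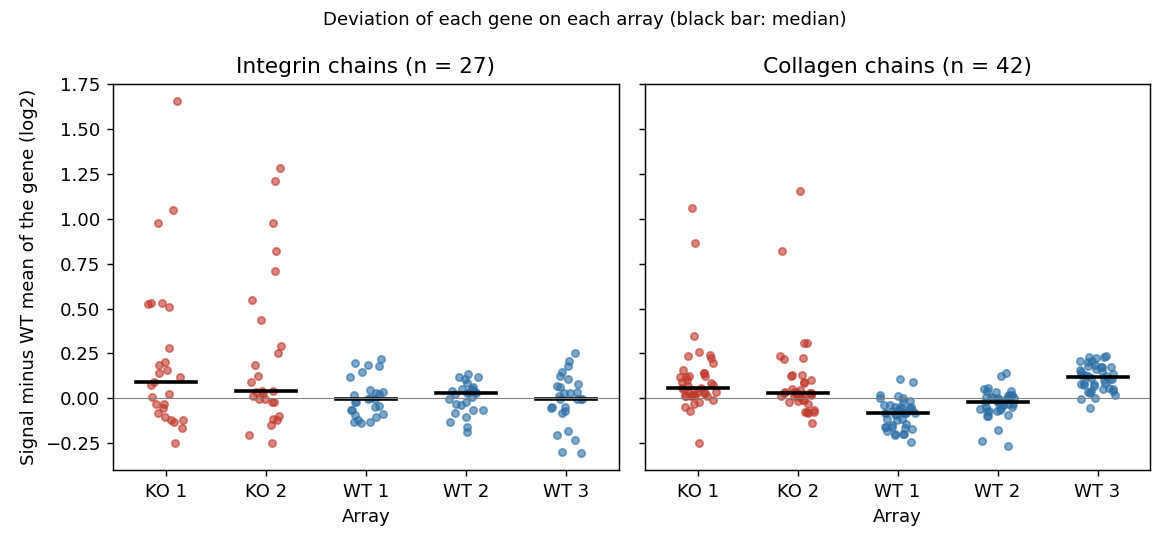
Signal of each integrin chain (left) and collagen chain (right) minus its WT mean (log2, y axis) on each array (x axis); red points are KO arrays, blue points are WT arrays and black bars are medians. The collagen points of WT 3 centre on 0.12 and those of WT 1 on -0.08, with KO 1 at 0.06 and KO 2 at 0.03 between them.

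Of the 3 genes that share only the name pattern, Itgb1bp1 fell. It encodes ICAP1, a cytoplasmic protein that binds the tail of beta 1 integrin and holds it inactive. It had 5.69 and 5.83 in KO cells, against 6.13, 6.27 and 6.01 in WT cells, a change of -0.38 (SE 0.101, adjusted p = 0.0403), the call nearest to the threshold among the 72 members. It lost its call in 4 of the 5 fits without 1 array and with an intensity trend (adjusted p = 0.0512). Itgb1bp2 of muscle had a change of -0.22, and Itgb3bp of the kinetochore had -0.07 at a signal below the lower quartiles.

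The members lay on 18 of the mouse chromosomes, 0 of them on chromosome 14, 18 or Y. Among the 20 nearest measured genes around each called gene the median change lay between -0.03 and 0.05, with fewer around Itgb1 (11) and Itga5 (17), which lie near chromosome ends. Around Itgb1 it was 0.03 and around Itgav -0.01. Itgb1, on chromosome 8, had Nrp1 and Ccdc7a as neighbours, with changes of 0.06 and 0.00. Around Col18a1, on chromosome 10, 5 of the 20 neighbours were called lower and 0 higher.

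Genes that act with integrins moved in both directions. Of 25 measured ligands other than collagens (28 listed), 7 were higher and 4 lower, with a median change of 0.09. The shares were 28% and 16%, against 8.48% and 8.6% over all genes. By mean signal 19 of the 25 exceeded the median of all probe sets. Among all genes above that median 13.5% were called higher and 14.4% lower. Ccn2, a matricellular protein, had 10.12 and 10.02 in KO cells, against 8.71, 8.68 and 8.25 in WT cells (log2 change 1.52, adjusted p = 0.000517). Nephronectin, Npnt, had 7.36 and 7.12 in KO cells, against 5.80, 5.95 and 6.05 in WT cells (log2 change 1.31, adjusted p = 0.000331). Laminin chains went both ways. Lamb1 and Lama1 fell, with changes of -1.42 and -1.11 (adjusted p = 0.000296 and 0.00379). Lama3, Lamb2 and Lama5 rose, with changes of 0.805, 0.805 and 0.41 (adjusted p = 0.000822, 0.000751 and 0.0270). The other laminin chains measured were not called. Lama1 lost its call without either KO array (adjusted p = 0.114 and 0.0684). Fibronectin, Fn1, had 11.18 and 10.81 in KO cells, against 11.54, 11.43 and 11.40 in WT cells (adjusted p = 0.0350). Without WT 1, and likewise without WT 2, only 2 ligands were called lower, Lamb1 and Lama1, so the call of Fn1 was lost.

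Of 23 measured genes of the integrin adhesion complex (24 listed), 5 were higher and 3 lower, with a median change of 0.03. The shares were 21.7% and 13%, against 8.48% and 8.6% over all genes. By mean signal 21 of the 23 exceeded the median of all probe sets. Among all genes above that median 13.5% were called higher and 14.4% lower, so the share called lower was near that of bright genes. Parva, an actin-binding partner of integrin-linked kinase, had 8.28 and 8.04 in KO cells, against 5.54, 5.01 and 4.88 in WT cells (log2 change 3.02, adjusted p = 0.000135). As for Col6a5, WT signals this dim may be background, and the size of the change is uncertain. Tln1, the talin that links beta tails to actin, had a change of 0.64 (adjusted p = 0.0118), and the kinase gene Ilk had 0.62 (adjusted p = 0.0158). Both lost their call without KO 1, KO 2 or WT 2 (adjusted p from 0.0684 to 0.183). Kank1, a talin-binding adaptor, was lower (log2 change -0.59, adjusted p = 0.0177), a call lost whichever array was left out (adjusted p from 0.0515 to 0.202).

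Of 31 measured genes for collagen folding, modification and crosslinking (34 listed), 3 were higher and 4 lower, with a median change of -0.01. The shares were 9.68% and 12.9%, against 8.48% and 8.6% over all genes. By mean signal 21 of the 31 exceeded the median of all probe sets. Among all genes above that median 13.5% were called higher and 14.4% lower. As a set these genes were thus called about as often as other genes. Pcolce, which speeds removal of the procollagen C-terminal propeptide, had 7.36 and 7.86 in KO cells, against 9.05, 9.20 and 9.04 in WT cells (log2 change -1.49, adjusted p = 0.000599). The lysyl hydroxylase Plod1 had 6.79 and 7.10 in KO cells, against 8.33, 8.5 and 8.11 in WT cells (log2 change -1.37, adjusted p = 0.000706). Crtap, of the prolyl 3-hydroxylation complex, had 9.07 and 9.11 in KO cells, against 8.14, 8.12 and 8.05 in WT cells (log2 change 0.99, adjusted p = 0.000251). Loxl4, a lysyl oxidase, had a change of 0.99 (adjusted p = 0.00587) at a WT signal near the median of all probe sets, and its call was lost without KO 1, KO 2 or WT 2 (adjusted p from 0.0525 to 0.140). Another probe set of Loxl4 had a change of 0.29 and was not called (adjusted p = 0.107). Of 14 measured genes for collagen breakdown and other collagen receptors (16 listed), 0 were called by limma. At an unadjusted p under 0.05, 4 were lower and 0 higher, where 14.2% and 13.6% of all genes are. Both KO arrays lay below all WT arrays for 7 of the 14 and above them for 0 (19.9% and 20% over all genes). Of the 14 genes 9 lay at or below the median of all probe sets on every array. The median change of the 14 genes was -0.09.

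Of the 10 integrin and collagen chains called, Itgb1, Itgb7, Col18a1 and Col6a5 kept their call without each array in turn, Col6a5 on its brighter probe set alone. Itgb5, Itga5 and Itga3 lost theirs without KO 1, KO 2 or WT 2 (adjusted p from 0.0565 to 0.192), and Itga9 also without WT 1 (from 0.0560 to 0.276). Itgav lost its call without KO 1 and Col14a1 whichever array was left out. No fit that left out 1 array turned the direction of a called member.

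**Figure D4:**
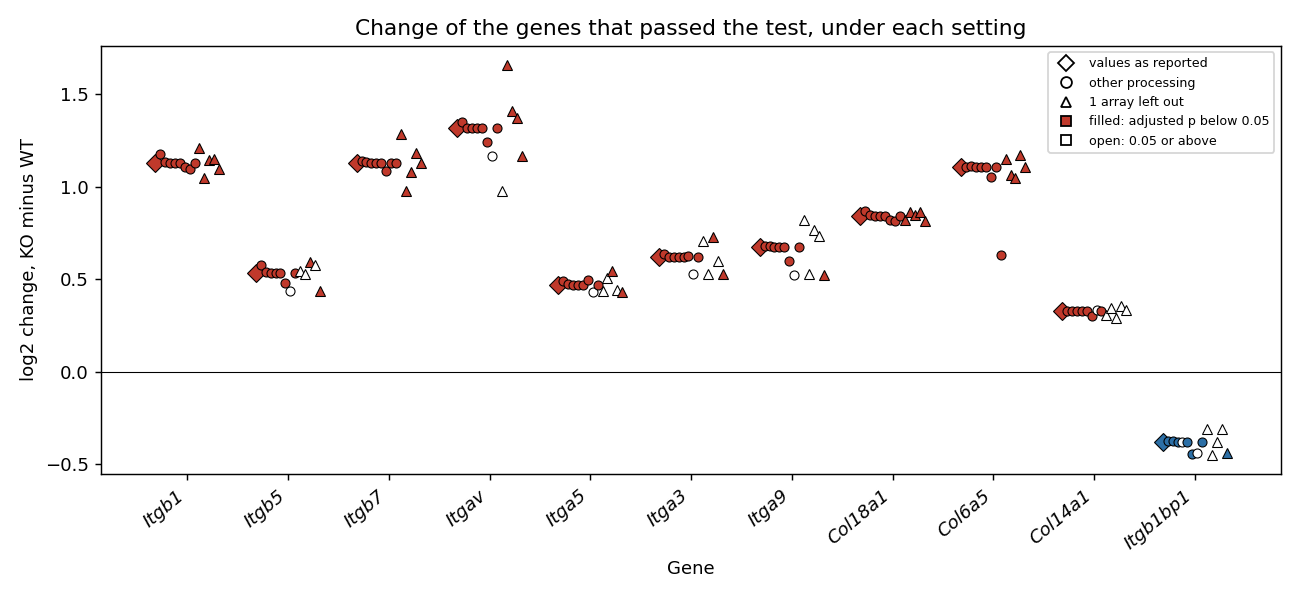
Log2 change, KO minus WT (y axis), of each gene that passed the test (x axis) as reported (diamonds), under other processing (circles) and with 1 array left out (triangles); filled marks have an adjusted p below 0.05. Marks of Itgb1, Itgb7, Col18a1 and Col6a5 are all filled, and 1 open triangle of Itgav at 0.98 is the fit without KO 1; the other probe set of Col6a5 is not plotted.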

How the data were processed

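Total RNA of asynchronous cultures was labelled with biotin and hybridised to Affymetrix arrays, per the labels' protocols. The authors deposited 1 table of normalized log2 signals for 35556 probe sets, rounded to 2 decimals. The background correction, summarisation, normalization and log base are not given in the sources used here; log2 was read from the range of the values, and another base would rescale changes but not p-values. Probe sets were named through GEO's platform annotation, which can be old: 21789 had 1 symbol, 1621 several and 12146 none. Gene identifiers of 19856 of 19938 genes, and of all 72 members, were found in a RefSeq table of GRCm38.p6.

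KO minus WT was tested with limma (lmFit, eBayes) on the deposited values, without covariates, and p-values of the 19938 genes were adjusted by Benjamini-Hochberg, with 0.05 as threshold. Residual degrees of freedom were 3 and prior ones 4.54, and the script was tested on simulated data. Exact permutation allows 10 splits of 5 arrays and no p under 0.1, so no such p is given. The design text calls the arrays biological replicates. Intervals are 95% intervals from limma. Members, lists and alternatives were chosen with earlier results of these data known. Named genes are the called members, the brightest member of each class, fixed members and checks, and up to 4 called genes of each list; other genes were named after their values were seen, to complete a class or a count. Sequences are from RefSeq tables. R 4.3.3, limma 3.58.1, Python 3.11.15, pandas 2.3.3 and matplotlib 3.10.9 were used.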

Additional observations from a re-analysis of the deposited data

How the results depend on the processing

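The fit was repeated without each array, without dim genes, after a further quantile normalization or centring on medians, with a trend, robust or weighted limma fit, with a replicate block, and on means over probe sets. Leaving out 1 array, which leaves fewer samples to estimate the spread, gave 2 to 7 integrin chains called higher, with 0 lower, and 2 to 3 collagen chains higher, with 0 lower. Of the integrin chains, 2 were called in every such fit, a count chosen after seeing the data. Over all genes it gave 536 to 1396 higher and 434 to 1560 lower, against 1690 and 1714. The median change then ran from 0.043 to 0.10 for integrin chains and from 0.0050 to 0.12 for collagen chains. Ligands had 4 to 6 higher and 2 to 3 lower, the adhesion complex 1 to 4 and 0 to 2, collagen folding 1 to 4 and 2 to 4, and collagen breakdown 0 and 0 to 1.

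With the replicate block 2 integrin chains were higher (median change 0.10), and 477 genes were higher and 417 lower overall; the ligands had 4 higher and 2 lower, the adhesion complex 1 and 1, and collagen folding 1 and 3; the median collagen change was 0.12, against 0.037 in the fit without it. WT 3 has no KO array of its number, so the block takes up that array whole. The changes with the block therefore equal those without WT 3, such as the median collagen change of 0.12. With this block the called integrin chains other than Itgb1 and Itgb7 had an adjusted p from 0.0672 to 0.137, Col14a1 0.118 and Itgb1bp1 0.0645. No label pairs the arrays, and same-numbered KO and WT arrays did not deviate together (r = 0.0371 between KO 1 minus KO 2 and WT 1 minus WT 2, across genes, which are not independent). Leaving out dim genes, or dim members, gave a median integrin change of 0.305. Collagen folding had 5 higher after quantile normalization again or with a trend. Collagen breakdown had 1 lower without dim genes and 3 with array weights.

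Among uncalled genes near 0 the direction turned with array weights for Col1a1 (0.017), Col26a1 (0.015), Col4a2 (-0.016), Col8a2 (-0.0020); after quantile normalization again for Col26a1 (0.010); with the replicate block for Col1a1 (0.080), Col26a1 (0.050), Itga6 (-0.050). Leaving out 1 array turned the same kind of value: changes ran from -0.085 to 0.080 for Col1a1, from -0.020 to 0.14 for Col1a2, from -0.045 to 0.050 for Col26a1, from -0.080 to 0.14 for Col4a2, from -0.090 to 0.14 for Col6a6, from -0.077 to 0.093 for Col8a2, from -0.030 to 0.18 for Col9a3 and from -0.050 to 0.17 for Itga6. The values with the replicate block are the same as those without WT 3, which has no KO array of its number. The cause of these turns was not tested. Signal over background was not analysed, which limits the sizes given for dim genes.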
